A study of Mus musculus with 24 samples.

Results

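The 10 genes described here are those that set the activity of pyruvate dehydrogenase, together with a pair of glucose-responsive arrestin genes. They were found by symbol in the deposited gene tables, where each of the 10 has 1 row among 56941 listed genes. They are the kinases Pdk1, Pdk2, Pdk3, and Pdk4, the phosphatase Pdp1, the complex subunits Pdha1, Pdhb, and Dlat, and the alpha-arrestins Txnip and Arrdc4. All 10 were among the 13315 genes that passed the filter on low counts. The tissues were 2D muscle sheets grown from ChR2::tdTomato C2C12 mouse myoblasts, an immortal line that carries a light-gated cation channel and fuses into contractile myotubes. All tissues, controls included, were kept for about 2 weeks in the same differentiation culture on fibrin hydrogels. The 4 groups, with 6 biological replicates each, were an unstimulated Control and tissues stimulated with blue light every day for 60 min at 1, 4, or 10 Hz. All replicates are tissues of 1 cell line, the controls also twitched spontaneously, and p-values measure the spread between these tissues.

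Pyruvate dehydrogenase is the mitochondrial complex that turns pyruvate from glycolysis into acetyl-CoA, and so commits carbon from glucose to oxidation. Pyruvate dehydrogenase kinases switch the complex off by phosphorylating its E1 alpha subunit, and pyruvate dehydrogenase phosphatases remove the phosphate and switch it on again. Pdk4 is the kinase best known for rising in muscle during fasting and when fat is the main fuel, while Pdk1 is a well-known target of the hypoxia-inducible factors. Txnip and Arrdc4 are sister genes whose transcription follows the glucose sensors MondoA and ChREBP, and both of their proteins restrain glucose uptake. The Txnip protein also binds thioredoxin, the small protein that keeps other proteins reduced.

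Depth ran from 8052369 to 18159144 estimated counts per library. The 10 myotube markers were detected in every group, with a summed level of 12500 to 20800 TPM (transcripts scaled for length and to the same total per library), and the fat cell markers stayed at 0 to 1.34 TPM. Markers of reserve or satellite-like cells summed to a median of 24.5 TPM in the controls and to 41, 36, and 31 TPM at 1, 4, and 10 Hz. Transcripts without a poly(A) tail had higher medians in the 1 and 4 Hz libraries, where 7 of them summed to 172.5 and 139.5 TPM against 63.6 in the controls and 49.5 at 10 Hz. The scale of the values also differed between the groups, though not in step with these transcripts in each library. 4 Hz replicate 4 had the most of them (464.7 TPM), with a median log2 TPM minus log2 CPM over genes of -0.92. This was lower in 4 Hz replicate 3 (200.7 TPM, -1.21) and 1 Hz replicate 6 (114.3 TPM, -1.07). Over all genes, the median log2 fold change against the controls was 0.04 at 1 Hz and 0.06 at 4 Hz on the CPM scale (counts per library total, after TMM scaling), but -0.14 and -0.21 on the log2(TPM + 1) scale. On the CPM scale 2554 genes rose and 2408 fell at 1 Hz, against 481 and 2933 on the TPM scale, and at 4 Hz 3664 rose and 3178 fell, against 782 and 4818. The part of these differences in the results was not tested, and where the sign of a change described below differs between the scales, both values are given. The TPM of 1 Hz replicates 4 and 6 and 4 Hz replicate 3 lay lowest against their CPM. Without these libraries 4, 7, and 1 of the 10 genes passed against the controls at 1, 4, and 10 Hz, as set beside each count. Of all 13462 genes tested in that fit, 4044, 7035, and 25 passed. In bulk tissue, fewer cells of a type and less RNA per cell cannot be told apart.

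The promoters of the sister arrestin genes are shown first, because both genes are known targets of the glucose sensors, which bind E-box-like letters. RefSeq windows (250 bases before to 50 after the start site) were matched for 9 of the 10 genes, and Pdp1 was not matched. The windows come from a table of the GRCm38.p6 build and all 9 were placed by exact match in GRCm39, that of Pdhb on the strand opposite to the one the table gives. The Txnip window, on the plus strand at chr3:96465023-96465322, carries in capitals a pair of E-box-like stretches of the form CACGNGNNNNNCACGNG, the arrangement known as a carbohydrate response element. The Arrdc4 window, on the minus strand at chr7:68398937-68399236, carries in capitals 1 E-box, CACGTG.
Txnip: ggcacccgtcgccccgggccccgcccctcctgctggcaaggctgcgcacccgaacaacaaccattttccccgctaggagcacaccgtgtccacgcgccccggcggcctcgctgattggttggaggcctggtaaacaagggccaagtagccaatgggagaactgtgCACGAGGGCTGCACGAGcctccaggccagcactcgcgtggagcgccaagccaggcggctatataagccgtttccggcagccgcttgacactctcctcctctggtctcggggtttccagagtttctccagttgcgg
Arrdc4: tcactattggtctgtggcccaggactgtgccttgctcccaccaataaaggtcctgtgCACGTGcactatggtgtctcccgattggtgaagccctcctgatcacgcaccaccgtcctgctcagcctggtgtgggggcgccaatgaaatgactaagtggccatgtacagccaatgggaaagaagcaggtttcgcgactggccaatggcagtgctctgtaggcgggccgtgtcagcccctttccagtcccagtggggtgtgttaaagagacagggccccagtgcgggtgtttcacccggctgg

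Both strands of all 32851 windows were searched for these letters. The pair in Txnip spans positions -85 to -69 from the start site, and 0.0487% of all windows held such a pair. The E-box of Arrdc4 spans positions -193 to -188, and 7.15% of all windows held one, that of Pdk2 included. The Txnip window also held the FOXO core GTAAACA at positions -121 to -115, which 3.65% of windows held. The core of the hypoxia response element, ACGTG, which overlaps every E-box, was in 19.6% of windows and in those of Pdk2, Pdk3, Pdhb, and Arrdc4. These letters were not in the Pdk1 window, nor was any of the searched motifs in that of Pdk4. A match of letters is a description, not a binding site.

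Per length, the E1 subunits were the most abundant of the 10 transcripts. In the controls, Pdha1, the E1 alpha subunit that the kinases act on, averaged 244 ± 12.7 TPM (SD, n = 6), and Pdhb, the E1 beta subunit, 167 ± 13.6 TPM. Dlat, the E2 core subunit, followed at 110 ± 6.61 TPM, and the ranges of these 3 did not overlap. Pdk1 was the leading kinase at 93.9 ± 3.19 TPM, but its range overlapped that of Txnip at 86.8 ± 7.78 TPM, and the range of Txnip overlapped that of Pdk2 at 69.9 ± 6.31 TPM. Pdk4 lay below at 42.5 ± 5.14 TPM. Pdk3 at 21.6 ± 1.27 TPM and Pdp1 at 20.5 ± 2.16 TPM did not differ beyond their spread. Arrdc4 was the lowest by far at 1.89 ± 0.471 TPM, which rests on 12 to 35 estimated counts per control library. At 1 and 4 Hz, Txnip moved down to between Pdk2 and Pdk4 in this order of means, Pdk1 moved above Dlat, and Pdp1 moved above Pdk3. The range of Txnip overlapped that of Pdk4, and Txnip was above it in 4 of 6 libraries at each frequency. Pdk1 was above Dlat in 4 of 6 libraries at 1 Hz and 6 of 6 at 4 Hz, with overlapping ranges.

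Stimulation at 1 and 4 Hz moved several of these genes, and 10 Hz moved none past the test. Against the controls at 1 Hz, 3 of the 10 genes rose (Pdk3, Pdk4, and Pdp1) and 1 fell (Txnip), while of all tested genes 37.3% passed, 19.2% higher and 18.1% lower (edgeR quasi-likelihood test, Benjamini-Hochberg adjusted p under 0.05). Without the 3 libraries named above, Pdk4 was lost and Dlat was gained. At 4 Hz, 5 rose (Pdk1, Pdk3, Pdk4, Pdp1, and Arrdc4) and 1 fell (Dlat), with 51.4% of all genes past the test, 27.5% higher and 23.9% lower. Without the 3 libraries, Pdk2 was gained. At 10 Hz, 0 of the 10 passed, with 0.0376% of all genes (5 genes) past the test, 0.015% higher and 0.0225% lower. Without the 3 libraries, Pdk4 passed. With all 24 libraries, 2 of the 10 had an unadjusted p under 0.05 at 10 Hz (Pdk4 and Pdha1), as did 8.07% of all genes. DESeq2, also on all libraries, called 1 of the 10 at 10 Hz (Pdk4). With a fold change limit of 0.5 on the log2 scale added, 2 of the 10 passed at 1 Hz (Pdp1 and Txnip, background 14.9%) and 2 at 4 Hz (Pdp1 and Arrdc4, background 25.1%). The 10 genes had median log2 fold changes of 0.11, 0.24, and -0.16 at 1, 4, and 10 Hz, beside 0.04, 0.06, and 0.01 for all genes. The 3 comparisons share the same controls.

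**Figure D1:**
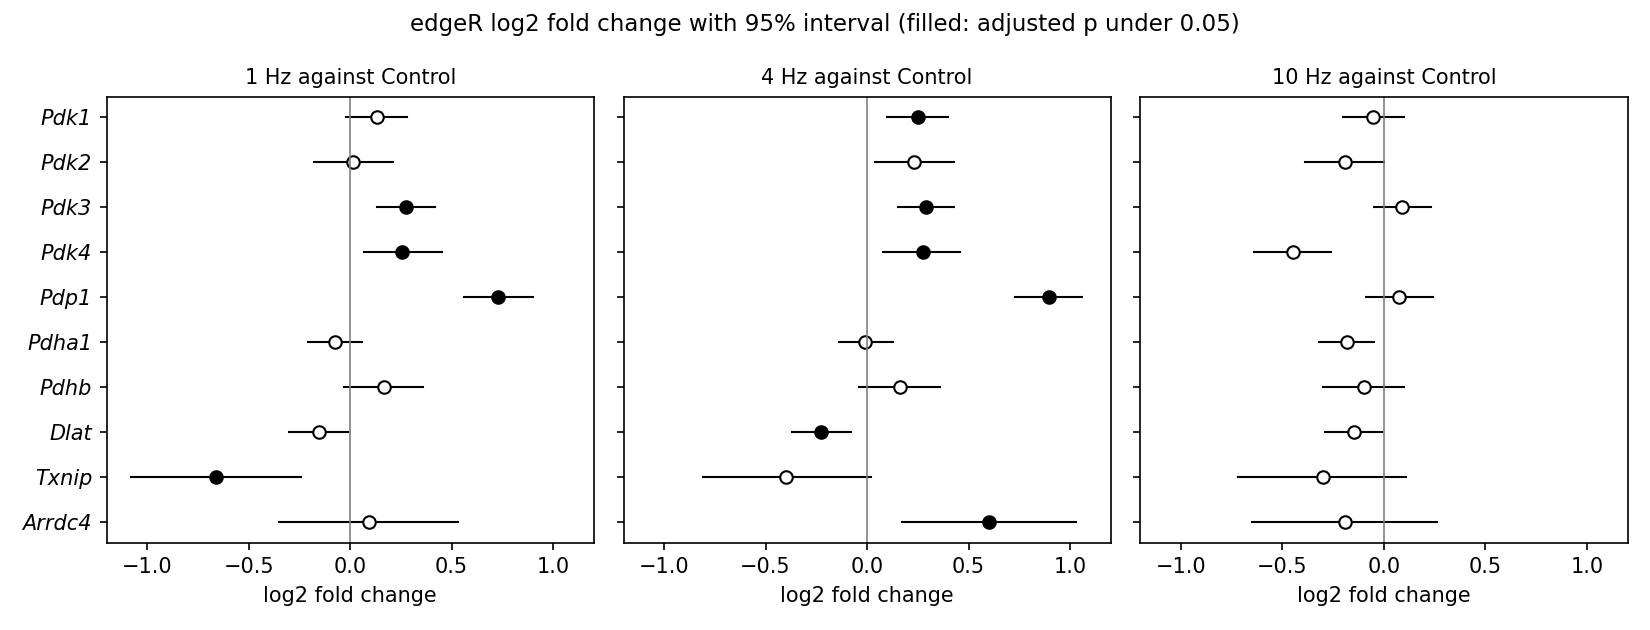
log2 fold change (x axis) of each of the 10 genes (y axis) against the controls at 1, 4, and 10 Hz, with 95% intervals from 6 libraries a group. Filled points passed at an adjusted p under 0.05. Pdp1 stood at 0.73 and 0.89 at 1 and 4 Hz and at 0.07 at 10 Hz, and Pdk4 changed sign between 4 Hz (0.27) and 10 Hz (-0.45).

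Pdp1 had the largest rise of the 10 genes at 1 Hz and at 4 Hz. Pdp1 (ENSMUSG00000049225, GRCm39 chromosome 4, 11957712 to 11966468, minus strand) encodes the catalytic subunit of the phosphatase that reactivates the complex. Its level in the controls ran from 30.3 to 38.5 CPM, with a median of 32.6. At 1 Hz it ran from 49.1 to 64 CPM (median 55.7), and at 4 Hz from 56 to 73.3 CPM (median 60.9). Every library at 1 and 4 Hz lay above every control library. The rise was 1.66-fold at 1 Hz (log2 0.73 ± 0.085 SE, edgeR adjusted p = 5e-07) and 1.86-fold at 4 Hz (log2 0.89 ± 0.085, adjusted p = 1.2e-08). At 10 Hz, Pdp1 ran from 32 to 42.6 CPM, which overlapped the controls, with a log2 fold change of 0.07 (95% interval -0.09 to 0.24, adjusted p = 0.92). Pdp1 also stood above the controls in every 1 and 4 Hz library on the TPM scale, where 10.5% of all genes at 1 Hz and 25.1% at 4 Hz had groups that did not overlap. On the CPM scale those shares were 14.1% and 27.6%, and 1.64% at 10 Hz, where none of the 10 genes stood apart.

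Pdk4 was the kinase with the widest spread between conditions. Pdk4 (ENSMUSG00000019577, chromosome 6, 5483097 to 5496339, minus strand) ran from 74.8 to 109 CPM in the controls (median 94.2). It ran from 91.8 to 136 CPM at 1 Hz (median 110) and from 98.6 to 123 CPM at 4 Hz (median 117). At 10 Hz it ran from 54.4 to 75.8 CPM (median 69.5), so that 5 of 6 libraries lay below every control library. Against the controls, Pdk4 rose by a log2 of 0.26 ± 0.096 at 1 Hz (edgeR adjusted p = 0.038) and of 0.27 ± 0.097 at 4 Hz (adjusted p = 0.020), but the TPM scale gave 0.04 and -0.04. With TMM scaling applied to the TPM (TMM rescaling), the values were 0.20 and 0.22, and neither passed. With 1 library left out, the rise passed in 4 of 12 fits at 1 Hz (lost without Control replicate 1, 3, 4, or 5 or 1 Hz replicate 1, 2, 4, or 6, lowest 0.17) and in 9 of 12 at 4 Hz (lost without Control replicate 4 or 5 or 4 Hz replicate 3, lowest 0.20). At 10 Hz the log2 fold change was -0.45 ± 0.097, rank 13 of the 13315 genes by p, and did not pass (edgeR adjusted p = 0.092). Over the alternatives that kept all 12 libraries, its adjusted p ran from 0.0067 in DESeq2 to 0.23 in limma on log2(TPM + 0.1), and it passed without Control replicate 5. On the TPM scale all 6 libraries at 10 Hz lay below all 6 controls (25.1 to 33 against 35.1 to 50.4 TPM), as for 1.44% of all genes in either direction.

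The other kinases changed less. Pdk3, a kinase that responds little to feedback from the products of the complex, ran from 26.1 to 30.7 CPM in the controls (median 27). At 1 Hz it ran from 30.6 to 36 CPM (median 33.2), and at 4 Hz from 29.8 to 37.2 CPM (median 34.6). It rose by a log2 of 0.28 ± 0.072 at 1 Hz (edgeR adjusted p = 0.0041) and of 0.29 ± 0.072 at 4 Hz (adjusted p = 0.0016), but the TPM scale gave 0.07 and -0.04. After TMM rescaling of the TPM, Pdk3 passed at 1 Hz (0.23, limma adjusted p = 0.012) and 4 Hz (0.22, adjusted p = 0.0099). At either frequency, 5 of 6 libraries stood above the range of the controls in CPM. Pdk1, the most abundant kinase, ran from 200 to 217 CPM in the controls (median 212), from 183 to 278 at 1 Hz (median 229), and from 222 to 281 at 4 Hz (median 244). The controls lay close together, and the 1 Hz libraries fell on both sides of them (log2 0.13, and -0.04 on the TPM scale). Pdk1 rose at 4 Hz by a log2 of 0.25 ± 0.077 (edgeR adjusted p = 0.0082). All 6 libraries exceeded the highest control in CPM, where 27.6% of all genes had groups without overlap in either direction. The TPM scale gave 0.07, and 0.34 after TMM rescaling (limma adjusted p = 0.0015). The edgeR call was lost without 4 Hz replicate 3 (lowest value with 1 library left out 0.19). Pdk2, the isoform found in most tissues, stood at a log2 of 0.23 ± 0.099 against the controls at 4 Hz, which did not pass (edgeR adjusted p = 0.052), and the TPM scale gave -0.10. It passed with upper-quartile factors (edgeR adjusted p = 0.035), in the fit of these groups alone (0.031), with the replicate number as a block (0.046), without the 3 libraries named above (0.023), and without Control replicate 1 or 6 or 4 Hz replicate 6. At 1 Hz the value of Pdk2 was 0.01, and -0.22 on the TPM scale. Of the windows of 50 bases in its annotated transcripts, 29.2% are shared with other genes, mainly Samd14 on the opposite strand (188 to 504 estimated counts against 601 to 1984 of Pdk2). Whether strand was considered in the counting is not given in the sources used here, so the share of such reads in Pdk2 is uncertain.

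**Figure D2:**
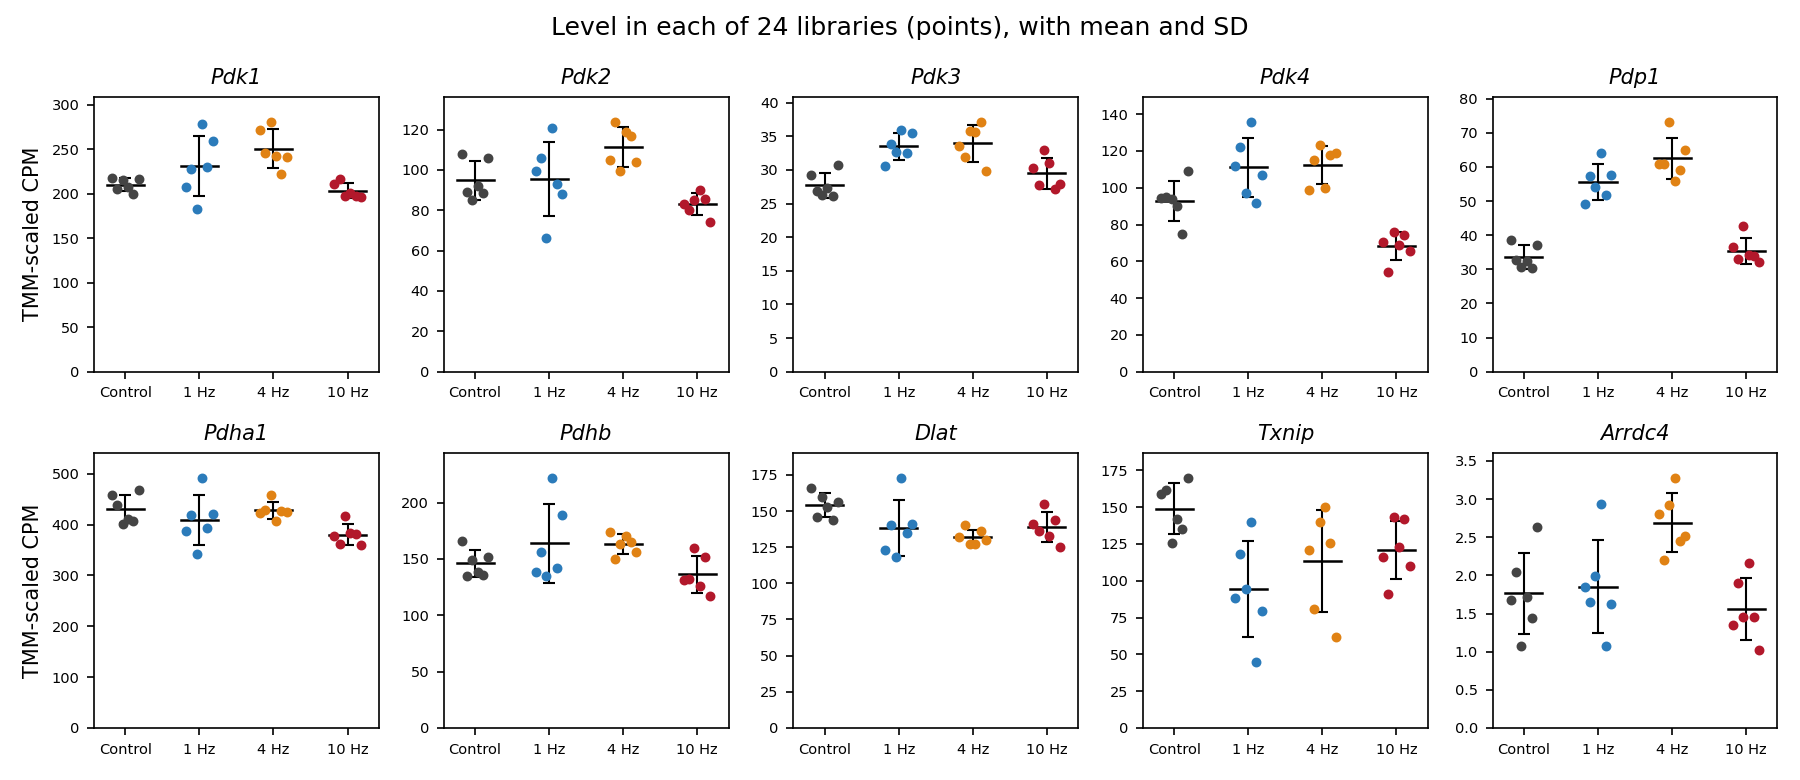
TMM-scaled CPM (y axis, from 0) of the 10 genes in each of the 24 libraries, by condition (x axis). Points are libraries, horizontal lines the mean, and bars the SD (n = 6). Pdp1 separates the 1 and 4 Hz libraries from the rest, and Txnip has its widest spread at 1 and 4 Hz.

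Of the subunits of the complex, only Dlat at 4 Hz passed against the controls in edgeR, while on the TPM scale Pdha1 and Dlat passed as lower at both 1 and 4 Hz. Pdha1 ran from 402 to 467 CPM in the controls and from 407 to 458 at 4 Hz, where its log2 fold change was -0.01 (95% interval -0.14 to 0.13). At 10 Hz it ran from 360 to 416 CPM, with 5 of 6 libraries below every control (log2 -0.18 ± 0.069, edgeR adjusted p = 0.48). On the TPM scale every 4 Hz and every 10 Hz library of Pdha1 lay below every control. Groups without overlap in either direction made up 25.1% and 1.44% of all genes there. Limma gave -0.29 and -0.33 at 1 and 4 Hz (adjusted p = 0.011 and 0.0019), beside the medians of -0.14 and -0.21 for all genes. After TMM rescaling these were -0.12 and -0.07 and did not pass. Pdhb had a log2 fold change of 0.17 at 1 Hz (95% interval -0.03 to 0.36) and 0.16 at 4 Hz (95% interval -0.04 to 0.36), and neither passed, while the TPM scale gave -0.07 and -0.17. Of its windows of 50 bases, 28.1% are shared with other genes, among them Pxk on the opposite strand. Dlat, which carries the lipoyl groups that hand on the acetyl unit, ran from 144 to 166 CPM in the controls and from 127 to 140 at 4 Hz. It fell by 0.22 ± 0.073 on the log2 scale at 4 Hz (edgeR adjusted p = 0.012), and the call was lost on TMM-rescaled TPM (-0.16, limma adjusted p = 0.11). Every 4 Hz library of Dlat lay below every control in CPM, where 27.6% of all genes had groups without overlap. At 1 Hz, Dlat stood at -0.16 ± 0.073 and did not pass (edgeR adjusted p = 0.092), though it did without 1 Hz replicate 4. Every 1 Hz and every 4 Hz library of Dlat lay below the controls on the TPM scale, with values of -0.32 (limma adjusted p = 0.026) and -0.42 (adjusted p = 0.0023). Of all genes, 10.5% and 25.1% had groups without overlap on that scale.

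Set against each other, these transcripts had a different balance at 1 and 4 Hz, and the kinases per Pdp1 were lower at 10 Hz too. The summed TPM of the 4 kinases divided by the TPM of Pdp1 averaged 11.2 ± 0.684 in the controls (SD, n = 6), and 7.59 ± 0.493, 7.55 ± 0.608, and 9.37 ± 0.617 at 1, 4, and 10 Hz. The highest ratio at 1 Hz was 7.97 and at 4 Hz 8.55, below the lowest control at 10.1. At 10 Hz the ratio ran from 8.52 to 10.2, so only its upper end reached the controls (10.1 to 12.1). The summed kinases divided by the mean of Pdha1, Pdhb, and Dlat went the other way, from 1.31 ± 0.0348 in the controls to 1.47 ± 0.0845 at 1 Hz and 1.61 ± 0.0762 at 4 Hz, with 1.32 ± 0.11 at 10 Hz. Both the kinases and Pdp1 thus stood higher against the complex at 1 and 4 Hz, Pdp1 by more. Ratios within a library do not depend on how libraries are scaled, and these are descriptions without a test. From CPM, which keep transcript length, the kinases per Pdp1 came to 12.7, 8.46, 8.18, and 10.9 in the same order of groups. In CPM the 10 Hz range (9.18 to 11.4) lay below that of the controls (11.7 to 13.8). Pdk1 made up 41.2% to 44.1% of the kinase TPM in the group means. Pdk4 held 18.6% ± 1.52 in the controls, and 20.0% ± 1.35, 18.2% ± 2.05, and 15.1% ± 1.48 at 1, 4, and 10 Hz.

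**Figure D3:**
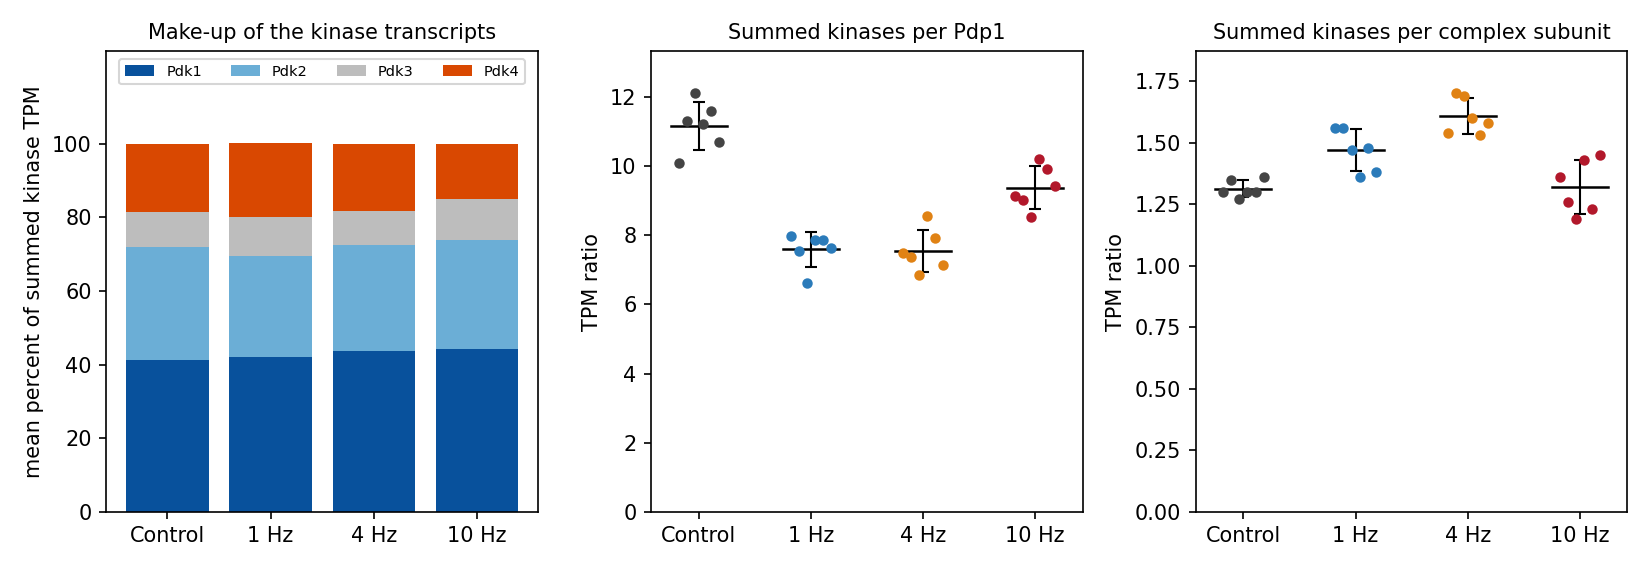
Left, mean percent of the summed kinase TPM held by each kinase (stacked bars). Middle and right, the summed kinase TPM per Pdp1 and per mean complex subunit in each library (points, with mean and SD, n = 6). All 12 libraries at 1 and 4 Hz lie below the controls in the middle panel. Those at 10 Hz reach the controls only at their upper end (8.52 to 10.2 against 10.1 to 12.1).

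Txnip fell at 1 Hz and was spread more widely at 1 and 4 Hz than in the controls, while the value of Arrdc4 at 1 Hz was a log2 of 0.09 (-0.05 on the TPM scale) and did not pass. Txnip (ENSMUSG00000038393, chromosome 3, 96465267 to 96469201, plus strand) ran from 126 to 170 CPM in the controls (median 151). It ran from 44.9 to 140 CPM at 1 Hz (median 91.2), 61.9 to 150 at 4 Hz (median 124), and 91.3 to 143 at 10 Hz (median 119). At 1 Hz, 5 of 6 libraries lay below every control, and at 4 Hz 3 of 6. Txnip fell to 0.632 of the control level at 1 Hz (log2 -0.66 ± 0.21, edgeR adjusted p = 0.019), and this passed with any 1 library left out (-0.84 to -0.52). At 4 Hz its log2 fold change was -0.40 ± 0.21 (adjusted p = 0.12), and at 10 Hz -0.30 ± 0.21 (adjusted p = 0.80). On the TPM scale, all 18 stimulated libraries lay below the 6 controls (78.4 to 98.4 TPM). They ran from 27.3 to 63.2 TPM at 1 Hz, 29.4 to 65.9 at 4 Hz, and 55 to 77 at 10 Hz. Of all genes, 10.5%, 25.1%, and 1.44% had groups without overlap in either direction on that scale at these frequencies. There, limma passed the fall at 4 Hz (log2 -0.80, adjusted p = 0.00074), also after TMM rescaling (-0.53, adjusted p = 0.033), and not the difference at 10 Hz (-0.33, adjusted p of 1). Of the Txnip transcript windows of 50 bases, 23.1% are shared with Gm15441 on the opposite strand, which had 0 to 3 estimated counts per library.

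Arrdc4 (ENSMUSG00000042659, chromosome 7, 68386742 to 68398999, minus strand) had 12 to 48 estimated counts in any library, so counting error weighs on its values. It ran from 1.07 to 2.63 CPM in the controls (median 1.7), 1.07 to 2.93 at 1 Hz (median 1.75), 2.2 to 3.28 at 4 Hz (median 2.65), and 1.02 to 2.16 at 10 Hz (median 1.45). Arrdc4 rose 1.52-fold at 4 Hz (log2 0.60 ± 0.22, edgeR adjusted p = 0.024). Of the 6 libraries at 4 Hz, 3 exceeded the highest control. That call was lost on the TPM scale (log2 0.26, limma adjusted p = 0.12), though not after TMM rescaling (0.45, adjusted p = 0.0095). It was also lost in 4 of 12 edgeR fits with 1 library left out (Control replicate 3 or 5 or 4 Hz replicate 3 or 4, lowest value 0.48). The TPM of Txnip per TPM of Arrdc4 averaged 47.9 ± 10.7 in the controls (SD, n = 6), and 26.2 ± 8.05, 21.2 ± 6.28, and 46.7 ± 15.9 at 1, 4, and 10 Hz. The highest ratio at 4 Hz, 27.5, lay below the lowest control, 38.4, while those at 1 Hz reached 39.6. Across the 24 libraries, which share conditions and differ in depth, Txnip and Arrdc4 had a Pearson r of 0.25 in log2 CPM, and 0.58 within conditions.

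**Figure D4:**
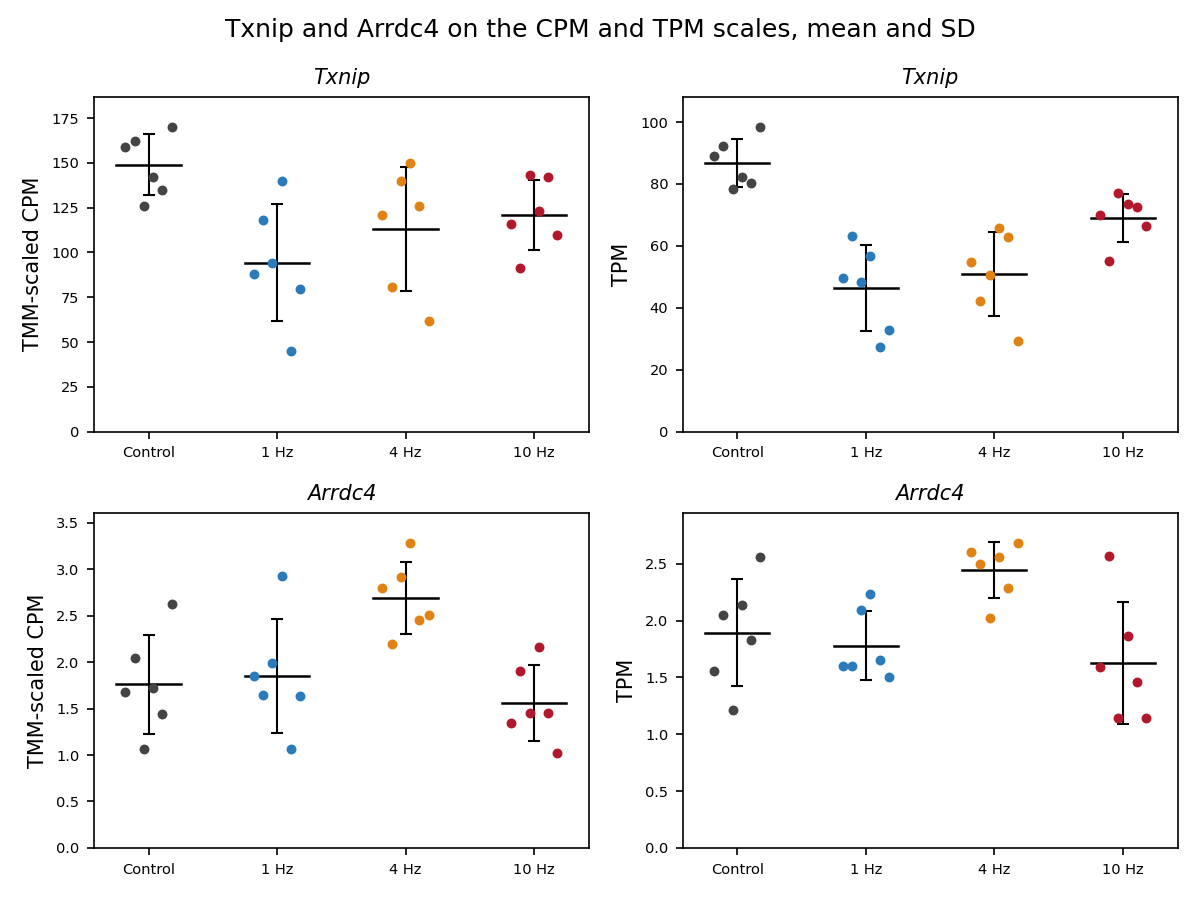
Txnip (top) and Arrdc4 (bottom) in each library by condition, as TMM-scaled CPM (left) and TPM (right), axes from 0, with mean and SD (n = 6). Txnip overlaps the controls in CPM and does not in TPM at every frequency, while Arrdc4 overlaps them on both scales. In TPM, 10.5%, 25.1%, and 1.44% of all genes do not overlap the controls at 1, 4, and 10 Hz.

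Compared directly in edgeR, 8 of the 10 genes were lower at 10 Hz than at 4 Hz, but only 2 were lower than at 1 Hz. Of all genes, 46.3% and 27.9% passed in either direction. Between 4 and 1 Hz, 0 of the 10 genes and 0 of all tested genes passed in edgeR, although 2 of the 10 (Pdk2 and Arrdc4) and 11% of all genes had an unadjusted p under 0.05. DESeq2 called 17 of all genes there and 0 of the 10, and without the 3 libraries named above edgeR called 389 of all genes and 0 of the 10. At 10 Hz, 2 of the 10 were lower than at 1 Hz and 0 higher, while of all genes 27.9% passed, 13.1% lower and 14.8% higher. These were Pdk4 (log2 -0.70 ± 0.098, edgeR adjusted p = 1.1e-05) and Pdp1 (log2 -0.66 ± 0.085, adjusted p = 4.7e-06), and every 10 Hz library of both lay below every 1 Hz library, as for 7.7% of all genes in either direction. Both also passed the limit of 0.5 (background 10.8%) and did not overlap on the TPM scale (4.43% of all genes). With 1 library left out, further genes passed as lower, namely without 1 Hz replicate 1 (Pdk1, Pdk3, Pdhb), 1 Hz replicate 3 (Pdk1, Pdk2, Pdhb), 1 Hz replicate 5 (Pdhb), 10 Hz replicate 3 (Pdk3, Pdhb), or 10 Hz replicate 5 (Pdhb). Against 4 Hz, 8 of the 10 were lower at 10 Hz and 0 higher, while of all genes 46.3% passed, 24.4% lower and 21.9% higher. Pdp1 was lower by the most (log2 -0.82 ± 0.086, edgeR adjusted p = 9.3e-08), followed by Arrdc4 (-0.79 ± 0.23, adjusted p = 0.0066) and Pdk4 (-0.72 ± 0.098, adjusted p = 3e-06). These 3 passed the limit of 0.5 (background 21.2%), and Pdk4 and Pdp1 did not overlap in TPM either (15.9%). Pdk2 (-0.42), Pdk1 (-0.30), Pdhb (-0.26), Pdk3 (-0.20), and Pdha1 (-0.17) made up the rest, and of these the calls of Pdk3 and Pdha1 were lost without the 3 libraries named above. With 1 library left out, Pdk3 passed in 5 of 12 fits (lost without 4 Hz replicate 3, 4, or 5 or 10 Hz replicate 1, 2, 5, or 6), Pdhb in 4 of 12 (lost without 4 Hz replicate 1, 3, 4, or 5 or 10 Hz replicate 1, 2, 4, or 6), and Pdha1 in 1 of 12 (without 10 Hz replicate 3). On the TPM scale, Pdk3 (0.10), Pdha1 (0.13), and Pdhb (0.04) turned to the other sign, against a median of all genes of 0.20, and Pdk1 (-0.14, limma adjusted p = 0.23) and Pdk2 (-0.11, adjusted p = 0.54) no longer passed. After TMM rescaling Pdk1 (-0.40, limma adjusted p = 0.00049) and Pdk2 (-0.36, adjusted p = 0.0055) passed. Pdk3 (-0.14), Pdha1 (-0.12), and Pdhb (-0.22) were then lower and did not pass. Dlat and Txnip did not pass in either comparison with 10 Hz in edgeR. Dlat passed on the TPM scale as higher at 10 Hz than at 4 Hz (log2 0.28, limma adjusted p = 0.039), though not after TMM rescaling (0.02). On the TPM scale, limma also gave Txnip a level higher at 10 Hz than at 1 Hz (log2 0.62, adjusted p = 0.017) and 4 Hz (0.47, adjusted p = 0.036). Neither difference of Txnip passed after TMM rescaling (0.46, limma adjusted p = 0.11, and 0.22, adjusted p = 0.41). In all, 5 of the 10 genes lay at 10 Hz below the whole range at 4 Hz (Pdk1, Pdk2, Pdk4, Pdp1, and Arrdc4), as 18.9% of all genes lay outside it on either side.

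Other genes of these pathways were counted by list. Counts on the CPM scale are to be read against all genes, of which 19.2% rose and 18.1% fell at 1 Hz and 27.5% rose and 23.9% fell at 4 Hz. On the TPM scale, 481 of 13422 genes rose and 2933 fell at 1 Hz, and 782 rose and 4818 fell at 4 Hz. After TMM rescaling of the TPM these were 1553 and 2187 at 1 Hz and 2663 and 3023 at 4 Hz. The factors known to regulate Pdk4 come first. Of 11 tested FOXO, PPAR, ERR, and glucocorticoid receptor factors, 5 rose and 1 fell at 1 Hz, and 8 rose and 1 fell at 4 Hz. Foxo1, a transcription factor of fasting, rose by a log2 of 0.58 ± 0.083 and 0.90 ± 0.083 at 1 and 4 Hz (edgeR adjusted p = 7.8e-06 and 8e-09), and its relative Foxo3 by 0.57 ± 0.077 and 0.72 ± 0.078 (adjusted p = 4.2e-06 and 7.3e-08). On the TPM scale 2 of the 11 rose, these 2, and 1 fell at each of these frequencies. After TMM rescaling 4 rose and 1 fell at 1 Hz, and 5 rose and 1 fell at 4 Hz. Of 12 tested PPAR target genes other than Pdk4, 0 rose and 4 fell at 1 Hz, and 1 rose and 5 fell at 4 Hz. Angptl4, an inhibitor of lipoprotein lipase, fell by 0.76 and 1.04 on the log2 scale at 1 and 4 Hz, and Ucp3, a mitochondrial carrier of muscle, fell by 1.17 and 0.83, also on the TPM scale. Of 9 targets of the hypoxia-inducible factors other than Pdk1, 5 rose and 1 fell at each of 1 and 4 Hz, but on the TPM scale 0 rose and 2 fell at 1 Hz and 1 rose and 2 fell at 4 Hz. Car9, a carbonic anhydrase, rose by 0.34 and 0.43 and Ndrg1, a stress-responsive gene, by 0.37 and 0.45, and neither passed on the TPM scale (0.10 to 0.14). After TMM rescaling both passed at 1 and 4 Hz (Car9 0.31 and 0.38, Ndrg1 0.31 and 0.37). There, 4 of the 9 rose and 2 fell at 1 Hz, and 5 rose and 0 fell at 4 Hz. Without the 3 libraries named above, the hypoxia targets that rose at 1 Hz were 2 and those that fell 2.

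The steps around pyruvate moved in both directions. Of 7 tested other parts of the complex, 1 rose and 1 fell at 1 Hz, and 1 rose and 2 fell at 4 Hz, while on the TPM scale 0 rose and 3 fell at each. After TMM rescaling 0 passed at 1 Hz, and 0 rose and 2 fell at 4 Hz. Pdhx, the protein that binds the E3 subunit to the core, fell by 0.29 and 0.35 on the log2 scale at 1 and 4 Hz (edgeR adjusted p = 0.019 and 0.0047), also on the TPM scale, and by 0.51 at 1 Hz without the 3 libraries. Its fall at 1 Hz did not pass after TMM rescaling (-0.28). Pdp2, the second phosphatase, rose by 0.38 ± 0.14 at 4 Hz (adjusted p = 0.021) from a low level of 4.46 CPM, and the TPM scale gave 0.04. Mpc2, a subunit of the mitochondrial pyruvate carrier, was the 1 of 3 pyruvate entry genes that passed at each of 1 and 4 Hz, with rises of 0.49 and 0.63. Without the 3 libraries its value at 1 Hz was 0.10, and on the TPM scale it passed at neither frequency. After TMM rescaling it passed at 4 Hz (0.56) and not at 1 Hz (0.50). Of 7 tested genes of the other 2-oxoacid dehydrogenases, 0 rose and 2 fell at 1 Hz, and 1 rose and 3 fell at 4 Hz. Dlst, the E2 subunit for 2-oxoglutarate, fell by 0.21 and 0.26 at 1 and 4 Hz, also on the TPM scale. Bckdha, a subunit of the branched-chain complex, rose by 0.39 at 4 Hz (0.06 on the TPM scale, and 0.31 after TMM rescaling, which passed). In the lactate branch, 0 of 4 tested genes passed at 1 Hz and 2 rose at 4 Hz. These were the lactate dehydrogenase subunits Ldha (log2 0.28 ± 0.083) and Ldhb (0.49 ± 0.14), for which the TPM scale gave -0.06 and 0.15. On that scale 0 of the 4 rose and 1 fell at 1 Hz, and 0 rose and 2 fell at 4 Hz. With TMM rescaling Ldha (0.21) and Ldhb (0.41) rose at 4 Hz and 0 fell, while 1 of the 4 fell at 1 Hz.

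Genes of glucose entry and of the thioredoxin system, on which Txnip acts, were also mixed. Of 5 glucose entry genes, 1 rose and 1 fell at 1 Hz, and 2 rose and 1 fell at 4 Hz. Slc2a3, a glucose transporter, rose by a log2 of 0.92 ± 0.13 and 1.16 ± 0.13 (edgeR adjusted p = 6.6e-06 and 1.4e-07), and Hk2, the hexokinase of muscle, fell by 0.43 and 0.42 on the log2 scale. Both passed in the same direction on the TPM scale. Of 5 thioredoxin genes, 1 rose and 1 fell at each of 1 and 4 Hz. Txnrd1, the cytosolic thioredoxin reductase, fell by 0.46 and 0.59 on the log2 scale, also on the TPM scale. Txn1, the cytosolic thioredoxin, rose by 0.33 and 0.41, and the TPM scale gave 0.09 and 0.07. After TMM rescaling Txn1 passed at 4 Hz (0.34) and not at 1 Hz (0.26). Without the 3 libraries the value of Txn1 at 1 Hz was 0.15 and did not pass. Among 3 other tested alpha-arrestins, Arrdc3 fell by 0.45 at 1 Hz and Arrdc2 rose by 0.62 at 4 Hz, and neither passed on the TPM scale (-0.47 and 0.06). Of the glucose-sensing factors, 0 of 2 (Mlx and Mlxip, the gene of MondoA) passed against the controls in edgeR at any frequency, nor had either an unadjusted p under 0.05, but on the TPM scale 1 of the 2 passed as lower at each of 1 and 4 Hz. After TMM rescaling 0 of the 2 passed at 1 or 4 Hz. Over all these lists, 26 of 68 tested genes passed at 1 Hz and 37 at 4 Hz, beside 37.3% and 51.4% of all genes. At 10 Hz 0 passed in edgeR, with 8 at an unadjusted p under 0.05.

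Over the 24 libraries, the genes most like these in log2 CPM were named as a description, since condition and library are shared by all points. For Txnip they were G0s2 (Pearson r = 0.88), Dll1 (0.85), and Hspa8 (0.83), with 0.84, 0.88, and 0.84 within conditions. For Pdk4 they were Zfand5 (0.89), Serinc3 (0.89), and Nctc1 (0.89), and within conditions these came to 0.73, 0.70, and 0.77. Pdk2 lay closest to Gys1, the glycogen synthase of muscle (0.95), Cdsn (0.92), and Pfkm, the phosphofructokinase of muscle (0.92). Pdk1 lay closest to Uqcrc2, a subunit of respiratory complex III (0.93), Acsl6 (0.92), and Csrp3 (0.90). Arrdc4 had no gene above 0.80, the value for Rab13, with C1qtnf5 and Fkbp1b next. All of these r were taken over 11739 genes with a mean log2 CPM of at least 1.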

How the data were processed

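RNA of 24 tissues was sequenced by the authors as read pairs of 50 bases, from poly(A)-selected directional libraries. Per the labels some low-input samples were ribodepleted instead, and which is not given in the sources used here. Reads were processed with nf-core/rnaseq, salmon, and the Ensembl annotation of GRCm39. The authors gave 1 estimated count per gene and library without normalization, and the deposited TPM were scaled by the authors for transcript length and to the same total per library. Estimated counts (19% of those above 0 are not whole, by more than 0.001) were rounded here. Genes were kept by filterByExpr (minimum count 10, total 15), scaled by TMM, and tested in 1 quasi-likelihood fit of all libraries in edgeR 4.0.16 (R 4.3.3). SE is the log2 fold change divided by the root of F, and intervals are ± 1.96 SE. The biological coefficient of variation was 14.8%. Alternatives used DESeq2 1.42.0 and limma 3.58.1 (log2 of TPM plus 1 or 0.1, genes at 1 TPM or more in 6 libraries). Gene positions and shared transcript windows came from GENCODE M39. All 10 genes are named, and of each pathway list the counts and up to 2 genes with the smallest p. The genes, lists, and tests were chosen with earlier results of these data known. The edgeR, DESeq2, and limma tests were also run on simulated counts for Control against 1 Hz. Transcript length was not simulated, so these runs cannot bear on the difference between the CPM and TPM scales.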

Additional observations from a re-analysis of the deposited data

How the results depend on the processing

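The counts of the 10 genes that passed stayed within 1.5 times under the other scaling factors, the strict filter, and the block. A log2 limit of 0.5 left 2 at 1 Hz, 2 at 4 Hz, and 3 for 10 against 4 Hz. Without a filter on low counts, 3 passed at 4 Hz, 1 at 10 Hz, and 5 for 10 against 4 Hz. Fits of the compared groups alone, DESeq2, and the fit without 1 Hz replicates 4 and 6 and 4 Hz replicate 3 each passed 1 at 10 Hz (Pdk4), and DESeq2 passed 4 for 10 against 1 Hz. Limma on log2(TPM + 1), log2(TPM + 0.1), and TMM-rescaled log2(TPM + 1) each passed 5 for 10 against 4 Hz. The rescaling and the fit without 3 libraries were chosen after seeing the data. With 1 library left out, 3 to 4 passed at 1 Hz, 3 to 7 at 4 Hz (3 without 4 Hz replicate 3), and 0 to 1 at 10 Hz (1 without Control replicate 5). For 4 against 1 Hz it was 0 throughout, for 10 against 1 Hz 2 to 5 (5 without 1 Hz replicate 1 or 3), and for 10 against 4 Hz 5 to 8 (5 without 4 Hz replicate 3, 4, or 5 or 10 Hz replicate 1, 2, or 6). The cause was not tested.

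Over all genes, the 5 calls at 10 Hz became 58 in the fit of the compared groups alone, 48 in DESeq2, 25 without the 3 libraries, 3 with the replicate block, and 0 on log2(TPM + 1) and 2 on the rescaled scale. For 4 against 1 Hz, 0 became 17 in DESeq2, 389 without the 3 libraries, and 1 with the block. For 10 against 1 Hz, 3713 became 2372 and 2306 on the TPM scales, where 2078 were higher and 294 lower against 1974 and 1739, and for 10 against 4 Hz 4459 and 679 against 2918 and 3245. TMM-rescaled TPM gave 1553 higher and 2187 lower at 1 Hz and 2663 and 3023 at 4 Hz.

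Directions turned mainly on the TPM scales (log2 fold change with a pseudocount of 1, then 0.1). At 1 Hz this held for Pdk1 (-0.037, -0.037), Pdk2 (-0.22, -0.23), Pdhb (-0.069, -0.069), and Arrdc4 (-0.049, -0.064). At 4 Hz it held for Pdk2 (-0.10, -0.10), Pdk3 (-0.035, -0.037), Pdk4 (-0.038, -0.039), and Pdhb (-0.17, -0.17). For 4 against 1 Hz it held for Pdk3 (-0.10, -0.11), Pdk4 (-0.075, -0.077), and Pdha1 (-0.044, -0.044), and for 10 against 1 Hz for Pdk2 (0.011, 0.012) and Pdha1 (0.088, 0.089). For 10 against 4 Hz it held for Pdk3 (0.10, 0.11), Pdha1 (0.13, 0.13), and Pdhb (0.040, 0.040). On the rescaled TPM, Pdk2 at 1 Hz (-0.056) and Pdk3 for 4 against 1 Hz (-0.010) turned. Pdk2 at 1 Hz also turned without a filter (-0.021), with the block (-0.0029), and without the 3 libraries (-0.060). The last fit also turned Pdhb (-0.035) and Arrdc4 (-0.12) at 1 Hz and Pdhb (0.18) and Dlat (0.032) for 4 against 1 Hz. Upper-quartile factors turned Pdha1 at 4 Hz (0.023), Pdhb for 4 against 1 Hz (0.0056), and Dlat for 10 against 1 Hz (-0.017), and DESeq2 Pdk3 for 4 against 1 Hz (-0.0056). With 1 library left out, values spanned 0 for Pdk2 (-0.090 to 0.081) and Arrdc4 (-0.14 to 0.22) at 1 Hz and Pdha1 at 4 Hz (-0.061 to 0.016). The same was so for Pdk3 (-0.011 to 0.054), Pdk4 (-0.034 to 0.077), and Pdhb (-0.060 to 0.096) for 4 against 1 Hz, Dlat for 10 against 1 Hz (-0.025 to 0.092), and Txnip for 10 against 4 Hz (-0.031 to 0.21).

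Replicate numbers did not pair the libraries, since 8 of 36 same-numbered pairs deviated together with r over 0.1 (median r -0.035) and in 5 of 36 checks of a library against another group, it correlated best with its own number. With the number as a block, 3, 7, and 0 of the 10 passed at 1, 4, and 10 Hz and 0, 2, and 6 between frequencies. Arrdc4 could not be tested under the strict filter, and its low counts limit its values.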
